A study of Mus musculus with 11 samples.

Results

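Interferon-stimulated genes are the genes that cells switch on when interferon binds its receptor, and 41 of them are described here across sorted dendritic cells of the mouse spleen. The members were a fixed list of gene symbols, chosen without a threshold on the measured values. They and the other gene lists used below were chosen with earlier results of these data known. Shares of members set beside those of all genes are therefore descriptions and no test of the list. Each gene was read through its probe set with the highest mean among probe sets that carry 1 gene symbol, which gave 38 measured members of 19938 genes measured in all. Isg15 and Gbp2 were covered only by probe sets that carry the symbols of several genes, and Ifi44 was not analysed here. Of the 38 measured members, 0 had more than 1 probe set to choose from, and no filter on low values was applied, so that none was lost to one.

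The study profiled classical dendritic cells (cDCs), the antigen-presenting cells of the spleen, on 11 whole-transcript expression arrays. CD24+ cDCs, the subset also called cDC1, came from control mice of genotype Zeb2(fl/fl) and gave 3 arrays. CD172a+ cDCs, the subset also called cDC2, came from control Zeb2(fl/fl) mice (4 arrays) and from mice of genotype Zeb2(fl/fl);CD11c-Cre(tg), which the labels call Zeb2-deficient (4 arrays). All mice were on the C57BL/6 background and all carried floxed Zeb2, a transcriptional repressor, so that only the labelled Zeb2-deficient mice carried the Cre transgene, and an effect of Cre itself cannot be told apart from one of the deletion. The CD11c promoter drives that Cre in dendritic cells and in other cells that express CD11c. No age was given, cells were analysed without any stimulus named in the labels, and no label ties a replicate to its own animal. The p-values therefore describe the variation among the arrays at hand, part of which may be technical.

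Type I interferons bind the receptor made of Ifnar1 and Ifnar2, whose kinases activate STAT proteins, and Stat2 then joins Irf9 in a complex that binds an interferon response element in the promoters of its target genes. The targets include sensors of viral RNA, enzymes that degrade or edit RNA, proteins that trap or modify viral components, and Usp18, which shuts the receptor down again. Dendritic cells are known to keep some of these genes on at rest, and spleen cDC subsets are known to differ in the RNA sensors they use.

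Some promoters of the leading members hold the sequence pattern that this complex is known to bind. The windows were RefSeq's for GRCm38.p6, from 250 bases before to 50 bases after each annotated start, and 31 of the 41 members had one. The motif searched was the core of the interferon response element, GAAANNGAAA, on both strands (TTTCNNTTTC on the other), counted with overlaps. It was found in 1079 of 27025 genes with a window (3.99%) and in 15 of the 31 members (48.4%). A match is a run of letters and was not tested as a binding site. Printed here are 150 bases before the start of the 5 members that passed the test of at least 1 comparison and held the core before their start, with the core in capitals. For Ifit3 the stretch runs from base 166 to base 17 before the start, so that both its matches show, and for the others from base 150 to base 1. Oasl2 and Isg20, which passed, held no match in their windows and among such members had the widest differences in labelled Zeb2-deficient CD172a+ against CD24+ cDCs, follow as the contrast. Sequences run 5′ to 3′ on the gene's own strand.
Ifit3: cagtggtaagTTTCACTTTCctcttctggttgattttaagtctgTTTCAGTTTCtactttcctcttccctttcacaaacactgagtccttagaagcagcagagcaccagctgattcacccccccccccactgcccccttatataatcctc
Ifit1: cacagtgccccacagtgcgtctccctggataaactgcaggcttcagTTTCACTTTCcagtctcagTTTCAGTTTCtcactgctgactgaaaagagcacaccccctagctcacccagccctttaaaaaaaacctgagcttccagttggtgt
Oas1a: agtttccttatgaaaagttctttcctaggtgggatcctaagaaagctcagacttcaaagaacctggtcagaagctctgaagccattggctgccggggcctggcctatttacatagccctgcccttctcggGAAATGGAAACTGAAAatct
Gbp7: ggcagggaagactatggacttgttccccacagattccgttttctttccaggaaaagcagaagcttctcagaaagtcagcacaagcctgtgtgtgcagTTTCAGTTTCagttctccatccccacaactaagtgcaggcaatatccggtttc
Rsad2: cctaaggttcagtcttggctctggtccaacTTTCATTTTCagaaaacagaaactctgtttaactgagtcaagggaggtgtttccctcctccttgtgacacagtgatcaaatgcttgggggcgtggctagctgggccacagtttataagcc
Oasl2: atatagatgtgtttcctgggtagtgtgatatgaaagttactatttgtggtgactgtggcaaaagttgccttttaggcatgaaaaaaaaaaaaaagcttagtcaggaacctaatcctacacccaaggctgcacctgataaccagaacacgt
Isg20: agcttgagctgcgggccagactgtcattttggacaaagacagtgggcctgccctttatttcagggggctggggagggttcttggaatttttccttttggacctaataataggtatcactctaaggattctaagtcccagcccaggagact
These stretches lie at chr19:34583363-34583512 on the plus strand (Ifit3), chr19:34640739-34640888 on the plus strand (Ifit1), chr5:120907526-120907675 on the minus strand (Oas1a) and chr3:142530186-142530335 on the plus strand (Gbp7). Those of Rsad2, Oasl2 and Isg20 lie at chr12:26456453-26456602 on the minus strand, chr5:114896784-114896933 on the plus strand and chr7:78913274-78913423 on the plus strand. The first base of the core lay 156 and 122 bases before the start in Ifit3 and 104 and 85 bases before it in Ifit1. In Oas1a it lay 20 and 14 bases before the start, as matches that overlap, in Gbp7 53 and in Rsad2 120 bases before it. In Ddx58, Ifih1 and Ifitm3 the matches lay only after the start or across it.

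Several measurements describe the samples behind these results. Values are log2 expression after normalization by RMA, on which a difference of 1 is a doubling, and RMA shrinks differences near background. Markers of cDC1 averaged 9.96 to 10.56 per array in CD24+ and 6.71 to 6.87 in CD172a+ cDCs, and markers of cDC2 5.54 to 5.93 and 7.99 to 8.72, which is what the subset labels name. Between the control subsets 9 of 10 cDC1 markers were higher in CD24+ cDCs and 7 of 8 cDC2 markers lower, by the limma test described below. The others were Batf3 of the cDC1 list (0.33, not passed) and Clec12a of the cDC2 list, which was higher in CD24+ cDCs (2.35). Zeb2 itself read 8.33 ± 0.19 (SD, n = 4) in control CD172a+ cDCs, 8.79 ± 0.44 (SD, n = 4) in those labelled Zeb2-deficient and 5.26 ± 0.23 (SD, n = 3) in CD24+ cDCs, so that it was not lower under the deficient label. Whether its probes lie in the deleted part was not analysed here. A second pattern crossed the groups. Along the first principal component (39.9% of the variance) the subsets parted, and along the second (34.2%) replicates 1 and 2 parted from replicates 3 and 4 in both CD172a+ groups. These are called the first and second replicate set here. CD24+ replicate 1 fell on the side of the first set and CD24+ replicates 2 and 3 on that of the second. The labels name no cause for the sets, and because they were found from these values, differences between them are described and not tested.

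Averaged over the members, the interferon-stimulated genes were lower in CD24+ than in CD172a+ cDCs and, within CD172a+ cDCs, lower in the second replicate set than in the first. The mean over the 38 members was 6.89, 6.57 and 6.69 in the CD24+ arrays, 7.76, 8.01, 7.34 and 7.29 in the control CD172a+ arrays and 8.22, 8.14, 7.42 and 7.49 in the labelled Zeb2-deficient CD172a+ arrays. All 3 CD24+ arrays lay below all 8 CD172a+ arrays, and in both CD172a+ groups replicates 1 and 2 lay above replicates 3 and 4. The labelled Zeb2-deficient arrays spanned 7.42 to 8.22 and the control arrays 7.29 to 8.01, so that these groups overlapped. The group means were 6.72 ± 0.16 (SD, n = 3), 7.60 ± 0.35 (SD, n = 4) and 7.82 ± 0.42 (SD, n = 4).

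**Figure D1:**
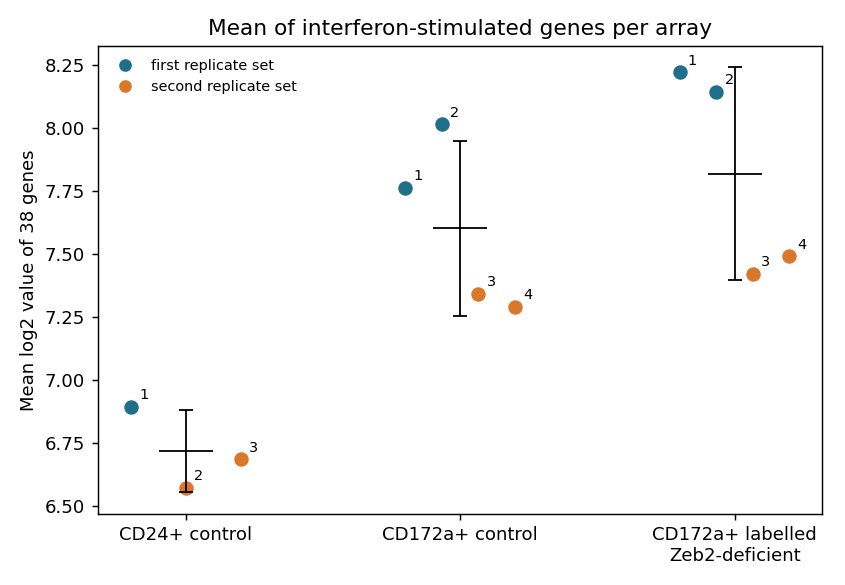
Mean log2 value of the 38 measured interferon-stimulated genes in each array, by group; points are single arrays coloured by replicate set and numbered by replicate, and black bars are the group mean and SD. The 3 CD24+ arrays sit between 6.57 and 6.89, below the lowest CD172a+ array at 7.29, and replicates 1 and 2 sit above replicates 3 and 4 in both CD172a+ groups.

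**Figure D2:**
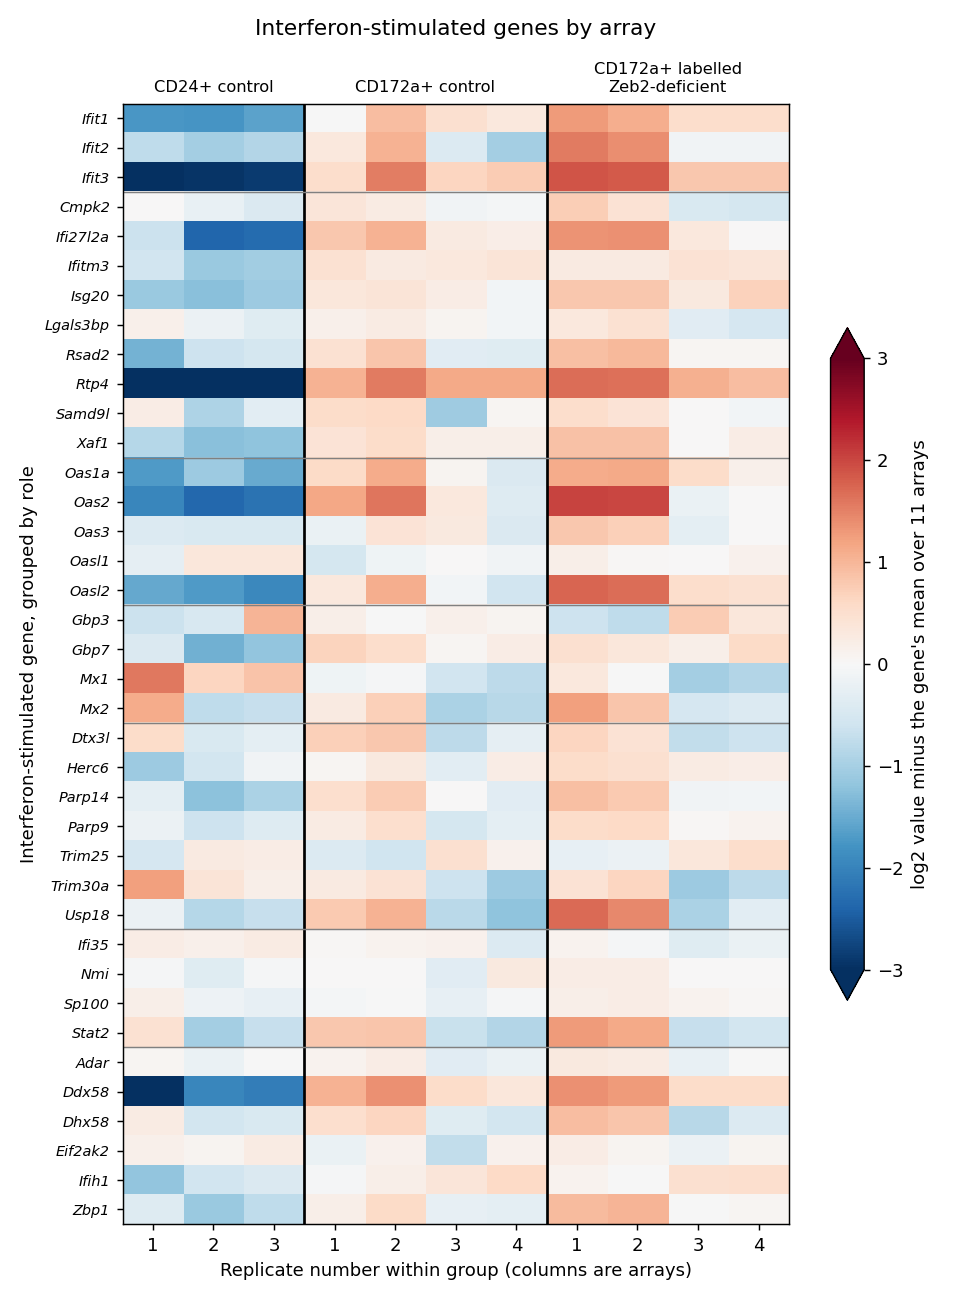
Log2 value of each measured member in each array minus that gene's mean over the 11 arrays, with genes grouped by role (grey lines) and arrays by group (black lines); red is above and blue below the gene's own mean, and colours stop at 3. Rtp4, Ifit3 and Ddx58 are the bluest rows in CD24+ cDCs, Mx1 is red there, and Usp18, Stat2 and Oas2 change from red to blue or pale between replicates 2 and 3 of both CD172a+ groups.

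The first question was how the cDC subsets of control mice differ in these genes. In CD24+ against control CD172a+ cDCs, 13 of 38 members fell and 1 rose with adjusted p below 0.05 (limma on all 11 arrays, two-sided, adjusted over all genes by the Benjamini-Hochberg method), where 3.16% of all genes fell and 3.25% rose. The 13 were Rtp4, Ifit3, Ddx58, Oas2, Ifi27l2a, Ifit1, Oasl2, Oas1a, Xaf1, Gbp7, Isg20, Ifitm3 and Ifih1, all by at least 2-fold and Rtp4 by 24.5-fold, and the 1 that rose was Mx1. In all 13 every CD24+ array lay below every control CD172a+ array, so a lower mean within each replicate set follows and adds no support. The differences within sets ran from -4.72 (Rtp4, second set) to -0.93 (Ifitm3, first set), and the first set holds only 1 CD24+ array. The median difference over the 38 members was -0.50 against -0.02 over all genes, with 29 negative and 9 positive. That median was -0.31 without control CD172a+ replicate 2 and -0.75 without control CD172a+ replicate 3. The remaining 24 did not pass. In these sorted bulk samples, fewer cells that express a gene and less of its RNA per cell cannot be told apart.

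The Ifit family, whose tetratricopeptide repeat proteins bind viral RNA, fell in 2 of its 3 members. Ifit3 read 4.99, 5.04 and 5.10 in CD24+ cDCs, 8.51, 9.51, 8.64 and 8.74 in control CD172a+ and 9.88, 9.81, 8.80 and 8.80 in labelled Zeb2-deficient CD172a+ cDCs. The CD24+ arrays were nearly equal and lay far below every CD172a+ array, at 14-fold less than in control CD172a+ cDCs (log2 difference -3.80, SE 0.311, limma adjusted p = 2.08e-05). Ifit1 read 4.59, 4.55 and 4.73 in CD24+ cDCs, 6.32, 7.26, 6.81 and 6.65 in control and 7.61, 7.42, 6.87 and 6.86 in labelled Zeb2-deficient CD172a+ cDCs. It too separated the subsets without overlap (log2 difference -2.13, SE 0.233, limma adjusted p = 0.000184). Ifit2 read 5.13, 4.87 and 5.01 in CD24+, 6.20, 6.94, 5.48 and 4.88 in control CD172a+ and 7.44, 7.28, 5.78 and 5.78 in labelled Zeb2-deficient cDCs. Here the CD24+ values lay near those of the second-set controls (replicates 3 and 4), and the difference of -0.87 did not pass (limma adjusted p = 0.511), being -1.44 within the first and -0.23 within the second replicate set. Ifit3b, a near copy of Ifit3 read by a probe set of its own, differed by -1.91 (limma adjusted p = 0.0175), and RNA of either gene may bind both probe sets.

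Among the oligoadenylate synthetases, which make the signal that activates the antiviral ribonuclease RNase L, 3 of 5 fell. Oas2 read 5.29, 4.91 and 5.04 in CD24+ cDCs, 8.41, 8.86, 7.56 and 6.87 in control and 9.28, 9.27, 7.06 and 7.28 in labelled Zeb2-deficient CD172a+ cDCs. The groups did not overlap, but the CD172a+ values themselves spread over a wider range than the gap below them, and the difference was -2.85 (SE 0.613, limma adjusted p = 0.0173). Oasl2, an oligoadenylate synthetase-like member, read 5.27, 5.10 and 4.87 in CD24+, 7.13, 7.89, 6.72 and 6.23 in control CD172a+ and 8.56, 8.48, 7.33 and 7.26 in labelled Zeb2-deficient cDCs (difference -1.91, limma adjusted p = 0.0173). Oas1a read 5.43, 6.05 and 5.62 in CD24+, 7.72, 8.27, 7.23 and 6.72 in control CD172a+ and 8.26, 8.29, 7.70 and 7.30 in labelled Zeb2-deficient cDCs (difference -1.78, limma adjusted p = 0.0105). In both genes the highest CD24+ array lay below the lowest CD172a+ array. Oas3 and Oasl1 did not pass, with differences of -0.47 and 0.33. Leaving out 1 array ended the call of Oas2 without control CD172a+ replicate 1 or CD24+ replicate 2 or 3 (limma adjusted p from 0.0513 to 0.0707) and that of Oasl2 without CD24+ replicate 2 or 3 (0.0621 and 0.0759).

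The dynamin-like Mx proteins and the guanylate-binding proteins, GTPases that restrict viruses and intracellular microbes, went both ways. Mx1 was the only member that rose in this fit, reading 8.05, 7.12 and 7.34 in CD24+ cDCs, 6.34, 6.44, 5.91 and 5.70 in control and 6.78, 6.47, 5.46 and 5.59 in labelled Zeb2-deficient CD172a+ cDCs. All CD24+ arrays lay above all CD172a+ arrays, by 2.65-fold on average against controls (log2 difference 1.41, SE 0.344, limma adjusted p = 0.0337), and the difference was 1.66 within the first and 1.43 within the second replicate set. C57BL/6 mice are known to carry a deletion in Mx1 that leaves no working protein. The call was lost without any 1 of CD24+ replicates 1, 2 or 3 or control CD172a+ replicates 1, 3 or 4 (limma adjusted p from 0.0517 to 0.133), with the difference between 1.13 and 1.60 over the arrays left out. Gbp7 fell, reading 5.32, 4.32 and 4.59 in CD24+, 6.44, 6.29, 5.82 and 5.98 in control CD172a+ and 6.24, 6.10, 5.94 and 6.33 in labelled Zeb2-deficient cDCs (difference -1.39, limma adjusted p = 0.00298). Its CD24+ values lay below every CD172a+ value. Mx2 and Gbp3 did not pass, at 0.09 and -0.13.

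Among the sensors and binding enzymes of viral nucleic acid, those of the RIG-I family that signal on contact with viral RNA fell. Ddx58, which encodes RIG-I, read 4.04, 5.08 and 4.96 in CD24+ cDCs, 8.09, 8.42, 7.59 and 7.37 in control and 8.40, 8.31, 7.59 and 7.59 in labelled Zeb2-deficient CD172a+ cDCs. The gap between the highest CD24+ and the lowest CD172a+ array exceeded the spread within either subset, and the mean was 9.03-fold lower than in control CD172a+ cDCs (log2 difference -3.18, SE 0.328, limma adjusted p = 0.000121). Ifih1, which encodes the related sensor MDA5, read 6.97, 7.58 and 7.72 in CD24+, 8.11, 8.32, 8.51 and 8.76 in control CD172a+ and 8.25, 8.13, 8.62 and 8.66 in labelled Zeb2-deficient cDCs. It was lower in CD24+ cDCs without overlap and by a smaller margin (difference -1.001, SE 0.214, limma adjusted p = 0.0167), and the call was lost without CD24+ replicate 1 (limma adjusted p = 0.0585). Dhx58, the family member LGP2 that lacks signalling domains of its own, differed by -0.31 and did not pass (limma adjusted p = 0.873). The DNA and RNA sensor gene Zbp1, the kinase gene Eif2ak2 and the RNA-editing enzyme gene Adar did not pass either, at -0.80, 0.33 and 0.00.

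Of the 9 other induced genes, 5 fell, among them the member with the widest gap. Rtp4, a receptor transporter protein gene that interferon induces, read 4.46, 4.30 and 3.51 in CD24+ cDCs, 8.52, 9.06, 8.62 and 8.63 in control and 9.17, 9.14, 8.54 and 8.42 in labelled Zeb2-deficient CD172a+ cDCs. The groups lay far apart, with little spread among the CD172a+ arrays, and the mean was 24.5-fold lower than in control CD172a+ cDCs (log2 difference -4.62, SE 0.258, limma adjusted p = 1.37e-06). Ifi27l2a, a small interferon-induced gene of mitochondrial membranes, read 9.94, 8.21 and 8.28 in CD24+, 11.41, 11.64, 10.86 and 10.80 in control CD172a+ and 11.95, 11.96, 10.92 and 10.60 in labelled Zeb2-deficient cDCs (difference -2.37, limma adjusted p = 0.0102). Its CD24+ replicate 1 lay well above the others of its group, though still below all CD172a+ arrays, and the call was lost without CD24+ replicate 2 or 3 (limma adjusted p = 0.0563 and 0.0558). Xaf1, which binds the apoptosis inhibitor Xiap, read 7.42, 7.01 and 7.05 in CD24+, 8.68, 8.80, 8.44 and 8.44 in control CD172a+ and 9.15, 9.14, 8.28 and 8.48 in labelled Zeb2-deficient cDCs (difference -1.43, limma adjusted p = 0.00193). Isg20, an exonuclease gene, read 6.42, 6.27 and 6.45 in CD24+, 7.88, 7.91, 7.75 and 7.45 in control CD172a+ and 8.34, 8.33, 7.84 and 8.22 in labelled Zeb2-deficient cDCs (difference -1.37, limma adjusted p = 0.000171). Both were lower in CD24+ cDCs without overlap and with little spread there. Ifitm3, whose protein blocks virus entry at endosomes, read 11.28, 10.73 and 10.80 in CD24+, 12.29, 12.12, 12.16 and 12.23 in control CD172a+ and 12.11, 12.12, 12.28 and 12.21 in labelled Zeb2-deficient cDCs (difference -1.27, limma adjusted p = 0.000106). The 8 CD172a+ arrays of Ifitm3 lay close together in both genotypes and above every CD24+ array. Rsad2, Samd9l, Cmpk2 and Lgals3bp did not pass, at -0.996, -0.37, -0.33 and -0.23. Rsad2, which encodes viperin, was lower without overlap, and its difference was -2.05 within the first and -0.22 within the second replicate set.

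None of the 7 measured members of the ISG15 system, the ubiquitin ligases and the PARP proteins passed in limma, and none of the 4 signalling members did. At an unadjusted limma p below 0.05, 2 of the 7 and 0 of the 4 passed, where 15.9% of all genes did. Parp14 was nearest, at -1.06 (limma adjusted p = 0.109). Usp18 and Stat2, the members that act on the receptor and behind it, differed by -0.53 and -0.44, with 95% intervals from -2.08 to 1.02 and from -1.81 to 0.93. Both intervals are wide and include 0. With the replicate set as a block in limma, 15 members fell and 2 rose, where 6.9% of all genes fell and 8.55% rose. Those added were Parp14 (-0.92, adjusted p = 0.000132), Zbp1 (-0.68, adjusted p = 0.00328) and, as a rise, Trim30a (1.06, adjusted p = 0.000302). The set block was found from these values. When replicate numbers were blocked on in a fit of the 7 arrays compared, none of these 3 passed (limma adjusted p = 0.0724, 0.167 and 0.299), and with that block on all 11 arrays Parp14 and Zbp1 did (limma adjusted p = 0.00626 and 0.0345). Replicate numbers join CD24+ replicate 2 to CD172a+ replicate 2, which fell in different replicate sets. A call lost under that block is therefore not decided by it.

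In 11 of the 38 members the CD24+ mean lay below the median of all gene means in that group (5.49), namely Ifit1, Ifit2, Ifit3, Oas2, Oas3, Oasl2, Mx2, Rtp4, Ddx58, Cmpk2 and Gbp7. At such levels RMA compresses differences, and the folds of the 7 of these that passed may be larger than given. Markers of other cells also moved between the subsets. Of 8 measured monocyte markers 2 fell in CD24+ cDCs (Csf1r at -2.71 and Fcgr4 at -1.22), with per-array means of 7.15 to 7.46 against 7.59 to 8.23. Of 11 splenic macrophage markers 1 fell (Adgre1 at -4.57), with per-array means of 5.12 to 5.71 against 5.58 to 7.08. Of 8 plasmacytoid dendritic cell markers 2 fell (Spib at -2.04 and Tcf4 at -0.63) and 1 rose (Ccr9 at 2.03), and of 8 B cell markers 1 fell (Cr2 at -0.65). RMA values have no zero, so absence cannot be read from them. The part of these cells in the interferon-stimulated genes was not tested.

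**Figure D3:**
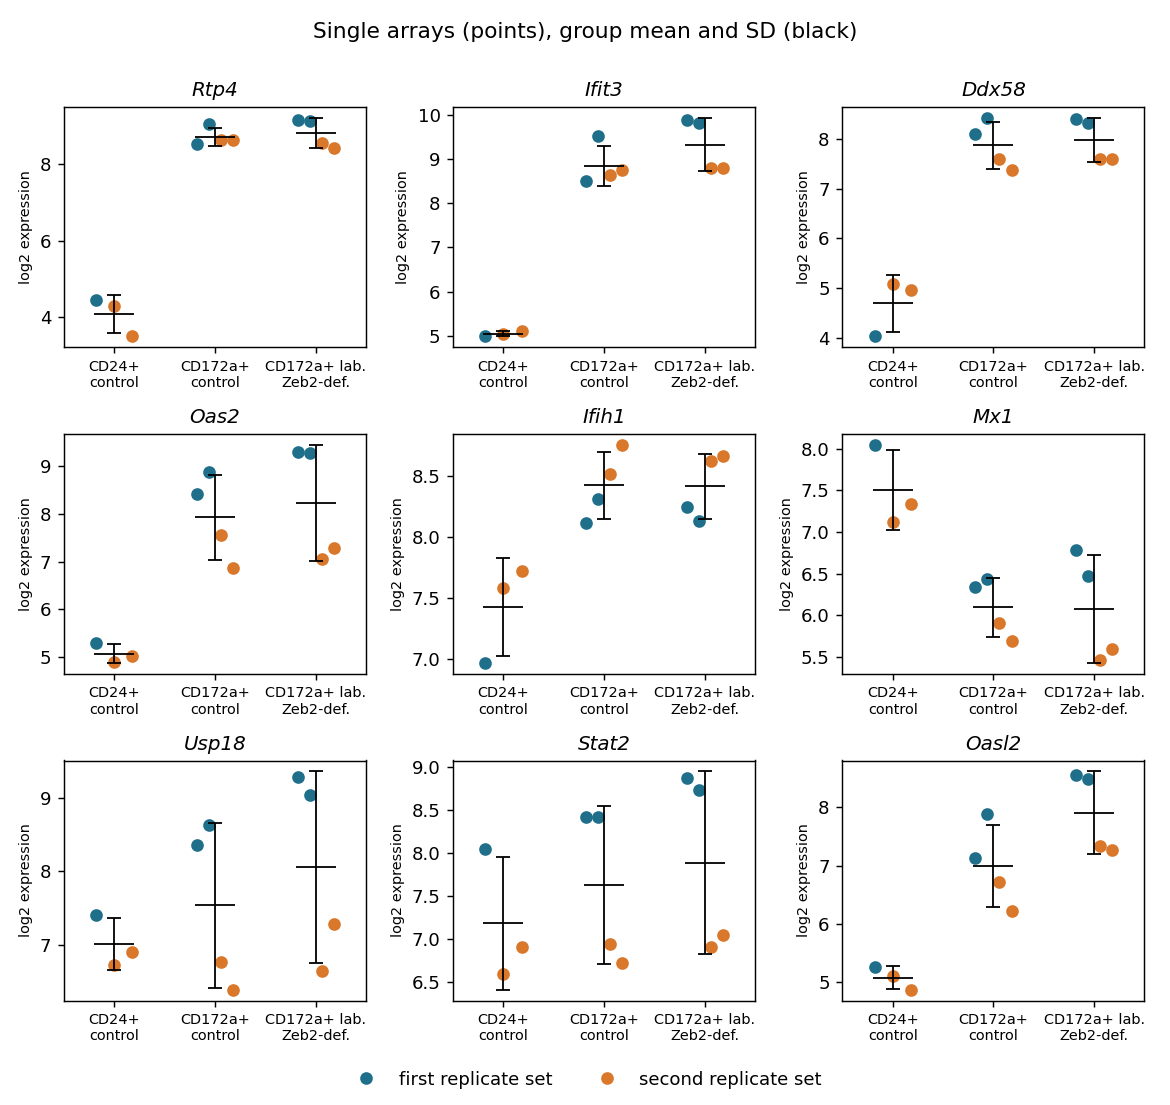
Log2 expression of 9 members in single arrays (points, coloured by replicate set) with the group mean and SD (black), for CD24+ control, CD172a+ control and CD172a+ labelled Zeb2-deficient cDCs; each panel has its own scale, which does not start at 0. Rtp4, Ifit3 and Ddx58 separate the subsets in both replicate sets, Mx1 is higher in CD24+ cDCs, and Usp18 and Stat2 separate the replicate sets within CD172a+ cDCs.

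Labelled Zeb2-deficient CD172a+ cDCs were set against the same CD24+ arrays, so that this comparison and the previous one share 3 arrays and their values are given side by side only. Here 16 members were higher and 1 lower with adjusted p below 0.05 in limma, where 3.25% of all genes were higher and 3.92% lower, and 31 of 38 differences were positive (median 0.86 against 0.03 over all genes). The 16 were the 13 above with Rsad2, Zbp1 and Herc6. Rtp4 was at 4.73 here, beside -4.62 for CD24+ against control CD172a+ cDCs. Ifit3 was at 4.28 beside -3.80, and Oasl2 at 2.83 beside -1.91. Mx1 was again the member on the other side, lower in CD172a+ cDCs by 2.69-fold (difference -1.43, limma adjusted p = 0.0293). Without CD24+ array 1 or 3, or array 3 or 4 of the labelled Zeb2-deficient group, the call of Mx1 was lost (limma adjusted p from 0.0725 to 0.117), and without CD24+ replicate 1 that of Ifih1 (0.0568). In this comparison 3 of 8 B cell markers were higher in CD172a+ cDCs. Plasmacytoid dendritic cell markers went both ways (2 higher, 1 lower), and so did monocyte markers (1 higher, 2 lower). Among the 11 splenic macrophage markers 1 was higher (Adgre1 at 4.30). Their part in the members' differences was not tested.

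Rsad2 read 5.48, 6.26 and 6.37 in CD24+ cDCs, 7.34, 7.72, 6.55 and 6.52 in control and 7.79, 7.87, 6.96 and 6.94 in labelled Zeb2-deficient CD172a+ cDCs (difference 1.36, limma adjusted p = 0.0459). Zbp1, which triggers necroptosis on binding viral or cellular nucleic acid, read 7.34, 6.61 and 6.96 in CD24+, 7.90, 8.29, 7.47 and 7.43 in control CD172a+ and 8.67, 8.74, 7.70 and 7.78 in labelled Zeb2-deficient cDCs (difference 1.25, limma adjusted p = 0.0329). Herc6, the mouse ligase that attaches ISG15 to proteins, read 6.78, 7.31 and 7.77 in CD24+, 7.93, 8.15, 7.56 and 8.09 in control CD172a+ and 8.43, 8.36, 8.13 and 8.07 in labelled Zeb2-deficient cDCs (difference 0.96, limma adjusted p = 0.0209). In all 3 genes the labelled Zeb2-deficient arrays lay above the CD24+ arrays without overlap, whereas control Herc6 reached down to 7.56 against a CD24+ maximum of 7.77. The calls were lost with 1 array left out, for Rsad2 without any single CD24+ array, labelled Zeb2-deficient array 1 or 2, or control CD172a+ array 1 (limma adjusted p up to 0.173). Those of Zbp1 were lost without CD24+ array 2 or 3, or labelled Zeb2-deficient array 1 or 2 (up to 0.14), and those of Herc6 without array 1 or 2 of either the CD24+ or the labelled Zeb2-deficient group (up to 0.0682). When replicate numbers were blocked on in a fit of the 7 arrays compared, Rsad2 and Herc6 did not pass (limma adjusted p = 0.0618 and 0.0893). That block too joins CD24+ replicate 2 to a CD172a+ array of the other replicate set, so it does not decide the calls of these genes. That these genes passed in this comparison and not in the control one does not show that the genotypes differ, which has a test of its own.

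The replicate sets of CD172a+ cDCs differed in these genes too, in part in other members than the subsets. Replicates 3 and 4 lay below replicates 1 and 2 without overlap, over both genotypes, in 21 of 38 members, where 14.1% of all genes did so, and above them in 2 (Ifih1 and Trim25), where 12.1% of all genes did so. The median difference, second set minus first, was -0.66 over the members and 0.05 over all genes, 33 of 38 were negative, and 9 members were lower by at least 1 log2 unit. Splitting by genotype, the median was -0.45 in control and -0.77 in labelled Zeb2-deficient cDCs.

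The 5 members with the widest set differences were Usp18, Oas2, Stat2, Ifit2 and Mx2. Usp18, the protease that removes ISG15 and blocks Ifnar2, read 8.36, 8.63, 6.77 and 6.39 in control and 9.28, 9.03, 6.63 and 7.28 in labelled Zeb2-deficient CD172a+ cDCs, and 7.40, 6.72 and 6.90 in CD24+ cDCs. Its first-set arrays all exceeded its second-set arrays, with means of 8.83 and 6.77, a 4.17-fold difference. Stat2, the transducer of type I interferon signals, read 8.05, 6.59 and 6.90 in CD24+, 8.42, 8.43, 6.94 and 6.73 in control CD172a+ and 8.88, 8.74, 6.91 and 7.05 in labelled Zeb2-deficient cDCs (set difference -1.71). CD24+ replicate 1 of Stat2 lay near the first-set arrays and CD24+ replicates 2 and 3 near the second-set arrays. Mx2 read 6.53, 4.66 and 4.75 in CD24+, 5.69, 6.14, 4.48 and 4.59 in control CD172a+ and 6.65, 6.26, 4.92 and 5.03 in labelled Zeb2-deficient cDCs (set difference -1.44), with CD24+ replicate 1 again among the higher values. The set differences of Oas2 and Ifit2, whose values are given above, were -1.76 and -1.49.

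Further set differences of at least 1 log2 unit were those of Trim30a (-1.34), Dhx58 (-1.26), Dtx3l (-1.26) and Oasl2 (-1.13), the last of these with overlapping arrays. The RIG-I family split here, with Dhx58 and Ddx58 at -1.26 and -0.77 and Ifih1 at 0.44. Trim25, the ligase that activates RIG-I, was at 0.72. Some members with wide subset gaps had small set differences, such as Rtp4 (-0.42), Ifit1 (-0.36) and Ifitm3 (0.06). The set difference was larger in size than the subset difference in 18 of 38 members, against 60.3% of all genes. Among the CD24+ arrays, replicate 1 lay above both others in 24 of 38 members, where 35.8% of all genes did so, and in 18 of the 21 members that were lower in the second set of CD172a+ cDCs (85.7%), a share near that among all genes lower there without overlap (81.6%).

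Other lists moved with the replicate sets. Splenic macrophage markers averaged 5.58 to 5.79 per array in the first and 6.72 to 7.08 in the second set of CD172a+ cDCs, with 9 of 11 higher in the second set without overlap. The others were C1qa (0.37) and Adgre1 (-0.43). Markers of cDC2 were lower without overlap in 7 of 8, and plasmacytoid dendritic cell and B cell markers in 2 of 8 each. Of 8 monocyte markers 2 were higher without overlap and 1 lower, with Cd14 at 3.32, a wider set difference than that of any member. The part of these shifts in the interferon-stimulated genes was not tested.

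**Figure D4:**
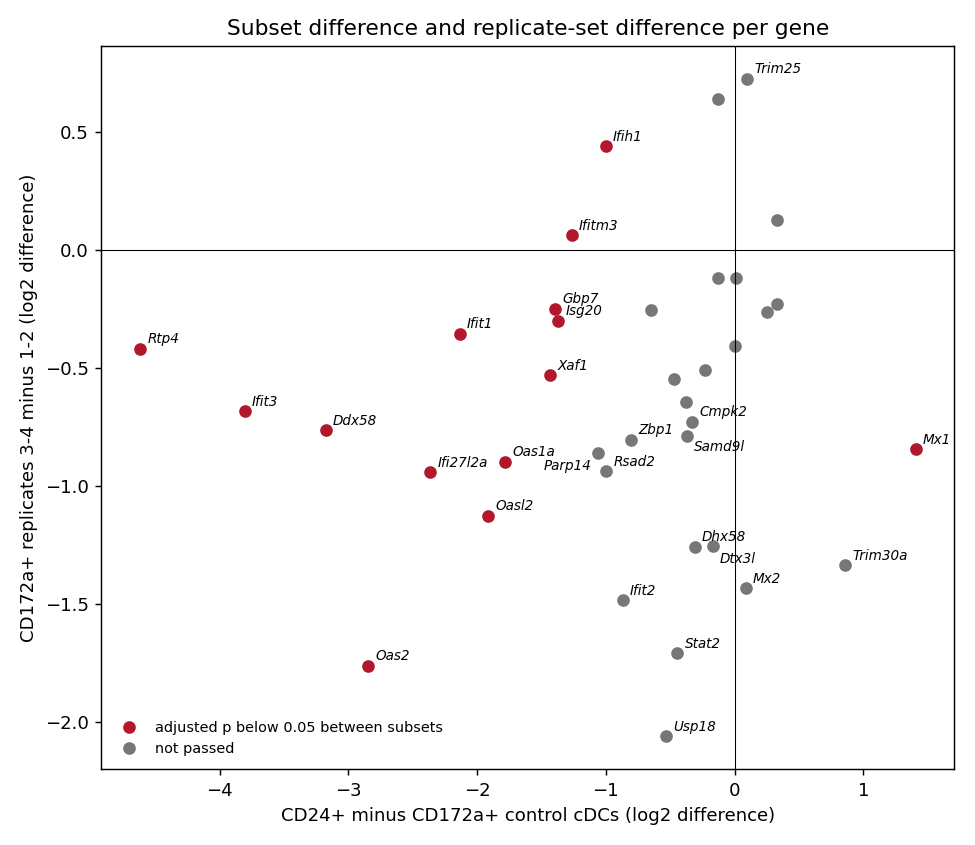
For each measured member, the log2 difference between CD24+ and CD172a+ control cDCs (x axis) and between replicates 3-4 and replicates 1-2 of CD172a+ cDCs of both genotypes (y axis); red points passed an adjusted p of 0.05 between the subsets in limma. Rtp4, Ifit3 and Ddx58 lie far to the left with set differences between -0.42 and -0.77, and Usp18 and Stat2 lie low on the plot with subset differences between -0.53 and -0.44.

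The study was set up to ask what changes in CD172a+ cDCs when Zeb2 is deleted. Between labelled Zeb2-deficient and control CD172a+ cDCs, 0 of 38 members had adjusted p below 0.05 in limma, where 0.0502% of all genes did. At an unadjusted p below 0.05 in limma, 2 members were higher and 0 lower (Isg20 and Oasl2), where 3.88% of all genes passed, and the smallest adjusted p was 0.998. In 1 member, Sp100, the groups did not overlap, where 2.1% of all genes had no overlap in either direction. The differences ran from -0.18 (Dtx3l) to 0.91 (Oasl2), with 30 positive and 8 negative (78.9% positive, against 51.5% over all genes) and a median of 0.20 against 0.01 over all genes.

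Isg20 was at 0.43 (SE 0.137, 95% interval 0.13 to 0.73), with only labelled Zeb2-deficient replicate 3 below the highest control. Oasl2 was at 0.91 (SE 0.381, 95% interval 0.07 to 1.75), and in each replicate set both labelled Zeb2-deficient arrays exceeded both controls. Sp100, a nuclear body protein gene, read 9.26, 9.30, 9.06 and 9.28 in control and 9.48, 9.53, 9.42 and 9.35 in labelled Zeb2-deficient cDCs, and 9.49, 9.16 and 9.07 in CD24+ cDCs. All 4 labelled Zeb2-deficient arrays lay above all 4 controls, by a small amount (difference 0.22, 95% interval -0.01 to 0.46). The widest interval was that of Usp18, from -0.92 to 1.96, which leaves room for a difference above a doubling. Rtp4 and Ifitm3, which separated the subsets, had narrower intervals around small values (-0.42 to 0.64 and -0.29 to 0.23).

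Set by set, the labelled Zeb2-deficient arrays lay mostly above their controls in the first set and less so in the second. Both exceeded both controls in 28 of 38 members in the first set, where 19% of all genes did so, and in 12 of 38 in the second, where 16.5% of all genes did so. The median differences were 0.29 and 0.13, and 15 members had opposite signs in the sets. In 10 members both sets showed it, where 4.12% of all genes did, namely Ifit1, Ifit2, Ifit3, Isg20, Oasl2, Mx2, Rsad2, Parp9, Zbp1 and Sp100. Control replicate 1 lay below control replicate 2 in 33 of 38 members, against 48.1% of all genes. The part of this in the first-set genotype differences was not tested. The median difference over the members turned on single arrays. It was 0.07 without labelled Zeb2-deficient replicate 1, 0.09 without replicate 2 and 0.31 without replicate 3 of that group, and 0.30 without control replicate 2, 0.08 without control replicate 3 and 0.13 without control replicate 4.

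A direct test of whether the genotype difference changed with the replicate set (interaction term in limma on the 8 CD172a+ arrays) gave 0 members with adjusted p below 0.05, where 0% of all genes passed, and 6 of 38 at an unadjusted p below 0.05, where 6.31% of all genes passed. The 6 were Gbp3, Cmpk2, Lgals3bp, Mx1, Ifi27l2a and Xaf1. Gbp3 was the only 1 of the 6 with a higher difference in the second set, with a genotype difference of -0.77 in the first and 0.44 in the second set (limma adjusted p = 0.468). With the replicate set as a block in limma, 0 members passed, where 0.145% of all genes did, and blocking on the replicate number among the 8 CD172a+ arrays also gave 0 members, where 0.13% of all genes did. The lowest adjusted p of a member was 0.112 and 0.114 in these fits.

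Markers of other cells differed between the genotypes. B cell markers averaged 4.93 to 5.30 per array in control and 5.45 to 5.82 in labelled Zeb2-deficient CD172a+ cDCs, with 1 of 8 higher in limma (Fcer2a, by 2.05). Ms4a1 was at 2.02 and did not pass, and the rest ran from -0.18 (Cr2) to 0.46 (Blk). The median over the 8 was 0.02, so the B cell list did not rise as a whole. Plasmacytoid dendritic cell markers averaged 6.33 to 6.70 and 6.70 to 6.99, with 1 of 8 higher (Cox6a2, by 2.09). The rest of that list ran from -0.27 (Tcf4) to 0.43 (Siglech), and its median was 0.08. Monocyte markers averaged 7.59 to 8.23 and 6.96 to 7.54, with 1 of 8 lower (Lyz2, at -1.66). The rest of that list did not pass and ran from -1.23 (Ccr2) to 0.07 (Fcgr1), with Csf1r at -0.94 and Cx3cr1 at -0.79. The median over the 8 was -0.60, so the monocyte list, unlike the B cell list, was lower by its median. The part of all these markers in the small positive differences of the interferon-stimulated genes was not tested.

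**Figure D5:**
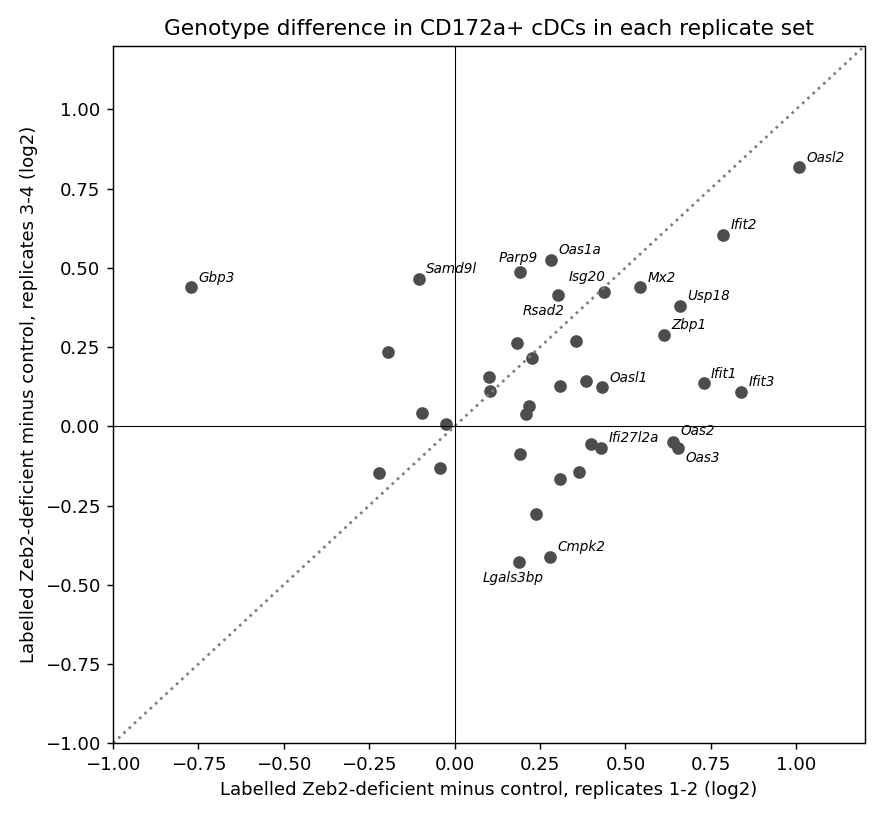
Log2 difference between labelled Zeb2-deficient and control CD172a+ cDCs for each measured member in replicates 1-2 (x axis) and in replicates 3-4 (y axis); the dotted line marks equal differences. Oasl2, at 1.01 and 0.82, and Ifit2, at 0.79 and 0.60, lie near the line in the upper right, and Gbp3, at -0.77 and 0.44, lies apart in the upper left.

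Among the genes that carry the interferon signal, the share that passed after adjustment between the control subsets was near that of all genes. Of 19 measured receptor, kinase, transcription factor and feedback genes, 1 rose in CD24+ against control CD172a+ cDCs and 0 fell in limma, where 3.25% of all genes rose and 3.16% fell. The rise was that of Irf1 (0.69, adjusted p = 0.0367), a transcription factor induced mainly by interferon gamma, and the next nearest were Ifngr1 (0.53, adjusted p = 0.0568) and the receptor kinase Tyk2 (0.72, adjusted p = 0.0656). In labelled Zeb2-deficient CD172a+ against CD24+ cDCs, Jak2 (0.63) and Ifnar2 (0.59) were higher and Tyk2 was lower (-0.85). Of all genes, 3.25% were higher and 3.92% lower there. Ifnar1 and Irf9, named here for their roles and with their values known, differed between the control subsets by -0.08 and 0.01. Of 15 measured interferon genes 0 passed between the control subsets in limma, and of 6 sensing adaptors and kinases 0 passed. At an unadjusted limma p below 0.05 between the control subsets, 15.9% of all genes passed. So did 7 of the 19 signalling genes, a larger share, 2 of the 15 interferon genes and 1 of the 6 adaptors and kinases. Ifna14 was the only 1 of the 15 interferon genes to pass in labelled Zeb2-deficient CD172a+ against CD24+ cDCs (0.51, limma adjusted p = 0.0463). Of all genes 7.17% passed there in either direction. Between the genotypes 0 genes of these lists passed in limma, and 1 signalling gene had an unadjusted p below 0.05, where 3.88% of all genes did. Between the replicate sets 6 of the 19 signalling genes were lower without overlap and 3 higher, where 14.1% and 12.1% of all genes were, with Irf9 at -0.90 and Irf7 at -0.62.

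A second list held 46 other interferon-stimulated genes, of which 36 were measured. In CD24+ against control CD172a+ cDCs 6 fell and 0 rose in limma, where 3.16% of all genes fell and 3.25% rose. The 6 were the membrane protein gene Ms4a4c (-4.02), the helicase gene Ddx60 (-2.73), Ifitm1 (-2.19), Ifit3b (-1.91), Oas1b (-0.99) and Gbp8 (-0.70). The median of the 36 was -0.14, against -0.50 for the 38 members. Between the genotypes 0 of 36 passed in limma and 1 had an unadjusted p below 0.05, where 3.88% of all genes did, with a median of 0.11. Between the replicate sets 21 of 36 were lower without overlap in the second set and 3 higher, where 14.1% and 12.1% of all genes were, with a median of -0.49.

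Read by promoter, the interferon response element core was present in 7 of the 10 members with a window that fell in CD24+ cDCs (70%), in 6 of the 18 that did not pass (33.3%) and in 5 of the 12 that were lower in the second replicate set without overlap (41.7%). These counts include matches that lay only after the start or across it. Such were those of Ddx58, Ifih1 and Ifitm3 among the 7 and that of Eif2ak2 among the 6. The groups are small, and the difference between their shares was not tested. Of 28 other interferon-stimulated genes with a window, 13 held it (46.4%). The gamma-activated site pattern TTCNNNGAA, which reads the same on both strands, was present in 8 of the 31 members with a window (25.8%), against 9.55% of all genes. Of the 28 other interferon-stimulated genes with a window only 2 held it (7.14%). Genes with several annotated starts counted as holding a motif where any of their windows did. Rtp4, Oas2, Mx1, Mx2 and Usp18 were among the members without a window.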

How the data were processed

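RNA of sorted spleen cDCs was measured on 11 arrays. Per the labels' protocols, spleens were dissociated by collagenase B with DNase I, an RNAqueous-Micro kit gave total RNA and the Ovation PicoSL kit amplified it. The deposited values are log2 expression per probe set, which the authors computed by RMA, per the submitters' processing notes. That method subtracts background, normalizes quantiles between arrays and summarises probes, and so compresses differences at low levels. Its software version and the probe filters are not given in the sources used here. Array medians lay between 5.455 and 5.521, and no pair of arrays shared more than 5.2% identical values. The number of arrays limits the precision.

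Groups and replicate numbers came from the titles. Of 30177 probe sets, 21789 carried 1 gene symbol in the platform annotation, 1621 several and 6767 none, and the highest-mean probe set stood for each of 19938 genes (999 had a choice). Groups were compared in 1 linear model over all arrays (limma 3.58.1, R 4.3.3), with group as the only factor (8 residual degrees of freedom), two-sided, Benjamini-Hochberg adjusted over all genes at 0.05. On simulated data with 100 genes changed by 1 log2 unit in the genotype comparison, 82% were recovered. A further 100 genes were changed by 2 log2 units there, and noise was drawn independently for each array, without replicate sets. That share therefore does not give the power for the members, some of which spread widely (SE 0.652 for Usp18 between the genotypes). Counts without overlap compare every array of one group with every array of the other. Members described with each array's value were those past the threshold in a comparison, those without overlap between the genotypes, and the 5 with the widest set difference. The members, the role groups and the other lists were chosen with earlier results of these data known. Plots used matplotlib 3.10.9 and Python 3.11.15.

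Replicate numbers were checked as a pairing. After subtracting group means, control and labelled Zeb2-deficient arrays of equal number correlated over genes by 0.442 to 0.68 (4 pairs, which counts as paired), but other-numbered pairs of the same replicate set gave 0.496 to 0.699, and CD24+ replicate 2 went against CD172a+ replicate 2 (-0.445 and -0.361). Alternatives were replicate and set blocks, fits on 2 groups or within a set, other scalings, probe set choices and filters, and leaving out each array.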

Additional observations from a re-analysis of the deposited data

Results flagged for a closer look

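Of 76 groups of 4 arrays tested over the members, 1 held an array far from the others, where chance gives about 1 in 20 groups. It was Ifi35, an interferon-induced leucine zipper gene, in control CD172a+ replicate 4, at a log2 value of 7.13 with the next array at 7.58 and the farthest at 7.67. The gap was 0.845 of the group's range and so exceeded Dixon's 95% critical value for 4 arrays.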

How the results depend on the processing

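The count of members past the threshold stayed within 1.5 times its value, and the median over the members kept its sign, under all alternatives run, including other scalings, probe set choices, a low-value filter at a mean of 5 and the within-set fits. The size of the median moved: between the control subsets it was -0.50, against -0.74 within the first and -0.24 within the second set. Over 11 arrays left out in turn, 0 members passed between the genotypes each time, 10 to 14 between the control subsets and 14 to 17 in the third comparison. With a replicate block in the fit of all 11 arrays, 0, 18 and 21 members passed in these comparisons, and the 14 and 17 called without it stayed called. With a replicate block on the 7 arrays compared, added after seeing the data, 14 and 17 members passed; the first were the same 14, and the second included 15 of the 17, without Rsad2 and Herc6. Over all genes the counts moved more. Between the genotypes 10 genes passed, against 26 with the replicate block on the 8 CD172a+ arrays, 29 with the set block, 5 with only 2 groups fitted, and 0 in a fit within either replicate set alone. Within the first and second set with the spread pooled over all arrays, alternatives added after seeing the data, 46 and 30 passed. Between the control subsets 1278 genes passed, against 3080 with the set block, 762 with the replicate block on 7 arrays and 2627 within the second set with pooled spread. In the third comparison 1429 passed, against 3641 with the set block and 2855 within the second set. Counted per named member and alternative, other than leaving out an array, 12 calls were gained and 0 lost between the control subsets, and 19 gained and 9 lost in the third comparison. The causes were not tested. Levels near background limit the folds of the 11 members lowest in CD24+ cDCs.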
